A study of Mus musculus with 24 samples.

Results

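The FOS and JUN family was followed as 8 genes chosen by name, namely Fos, Fosb, Fosl1, Fosl2, Jun, Junb, Jund and Batf3, out of 55487 genes listed in the table of normalized counts. The choice used no cut on a measured value, but it was made with earlier results of these data known. Of the 8 genes, 7 reached a normalized count of 10 in 6 or more libraries, out of 24, and were tested. Batf3 had no read in any of the 24 libraries and was not tested.

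Proteins of the FOS and JUN family carry a basic region that contacts DNA and a leucine zipper through which they pair, and the pairs make up the transcription factor AP-1. FOS proteins (FOS, FOSB, FRA1 from Fosl1 and FRA2 from Fosl2) pair with JUN proteins (JUN, JUNB and JUND), which can also pair with each other, whereas BATF3 lacks a transactivation domain and is best known from dendritic cells. Fos, Fosb, Jun and Junb are classical immediate early genes, induced by growth factors, Ca2+, contraction or stress without new protein synthesis, while Fosl1 and Fosl2 are commonly described as later members and Jund as a more steadily expressed one.

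The data are bulk RNA from C2C12 cells, an immortalized mouse myoblast line that fuses into myotubes, labelled wild type and day 5 of differentiation. Each of the 4 groups held 6 libraries, and myotubes were kept at their O2 level for 2 h before any stimulation. The groups were unstimulated myotubes at 5 % O2 (5 % CTRL), electrically stimulated myotubes at 5 % O2 (5 % STIM), unstimulated myotubes at 1 % O2 (1 % CTRL) and stimulated myotubes at 1 % O2 (1 % STIM). Stimulation consisted of 6 bouts of 30 s, 4 min apart, in which pulses of 2 ms were given at 50 Hz and 14 V, and RNA was taken right after it. Per the study's methods, the medium was changed before and after stimulation, and a change at the latter time is not stated for unstimulated myotubes. The part of the medium change in the differences was not tested. The model has no nerve, vessel or immune cell, and it is a single line, so replicates share 1 genotype. The study's methods call the libraries of a group biological replicates without saying what separated them (a well, a passage or a day), so the p-values measure the spread between these libraries and no more.

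Libraries for which whole reads could be recovered (22 of 24) held 26541858 to 28173745 reads. All 14 myotube markers fixed for the check were detected and passed the filter, with a summed normalized count of 610676 to 731730 per library, against 3410 to 6167 for 6 myoblast and cell cycle markers and 52.8 to 102 for 10 markers of immune, endothelial and neural cells, of which Snap25 was at 0 in each group. In bulk RNA, fewer cells of a type and less RNA per cell cannot be told apart. Replicate 1 of 1 % CTRL stood apart from its group, with a root mean square deviation of 0.373 on the log2 scale against at most 0.295 in the other libraries. Its deviations also fell with the GC content of the transcripts, by 0.118 on the log2 scale per 10 percentage points, where those of the other 1 % CTRL libraries rose by 0.039 to 0.084. It was the lowest library of its group for Fosb, Fosl1, Jun, Junb and Jund and the highest for Fos, and values without it are given for each call of a member that it changed and for the counts of calls in gene lists that it changed. Replicate 5 of 5 % CTRL had a GC trend of −0.100 per 10 percentage points, against −0.018 to 0.069 in the others of its group. That library was the lowest of 5 % CTRL for Fosl1, Jun, Junb and Jund.

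In the GENCODE M21 annotation of GRCm38, Fos lies on chromosome 12 from 85473890 to 85477273 (plus strand), Fosb on chromosome 7 from 19302696 to 19310051 (minus), Fosl1 on chromosome 19 from 5447547 to 5455946 (plus) and Fosl2 on chromosome 5 from 32135801 to 32157842 (plus). Jun lies on chromosome 4 from 95049034 to 95052222 (minus), Junb on chromosome 8 from 84974484 to 84978718 (minus), Jund on chromosome 8 from 70698949 to 70700616 (plus) and Batf3 on chromosome 1 from 191097847 to 191108945 (plus). An antisense gene overlaps 57.2 % of the exon bases of Fosl1 (Ccdc85b), 52.6 % of those of Jund (Gm11175), 7.52 % of those of Junb (Prdx2) and 7.28 % of those of Jun (Junos). The counting is not stated to have used the strand, so reads of these 4 members and of their partners cannot be told apart in the overlaps. Fos, Fosb, Fosl2 and Batf3 have no such overlap, and none of their stretches of 75 exon bases occurs in another gene.

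The stretches upstream of the classical immediate early members are shown because induction of these genes is known to run through short elements close to the start. They come from the RefSeq promoter table (GRCm38.p6), on the strand of the gene, 5′ to 3′, and end at the base before the RefSeq start, except for Fosb, whose stretch ends at the base before the GENCODE start, a few bases further upstream. The RefSeq start of Junb lies upstream of the GENCODE start given above. Capitals mark TGACG, the core of the cAMP response element to which CREB and ATF proteins bind, in Fos, Fosb and Junb, and TGACATCA, an AP-1 type element, in Jun.
Fos, chr12:85473640-85473889, plus strand: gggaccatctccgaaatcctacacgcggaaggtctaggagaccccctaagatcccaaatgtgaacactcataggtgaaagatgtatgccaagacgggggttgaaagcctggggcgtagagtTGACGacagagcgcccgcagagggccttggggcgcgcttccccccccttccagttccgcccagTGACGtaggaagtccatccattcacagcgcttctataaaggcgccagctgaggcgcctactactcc
Fosb, chr7:19310052-19310295, minus strand: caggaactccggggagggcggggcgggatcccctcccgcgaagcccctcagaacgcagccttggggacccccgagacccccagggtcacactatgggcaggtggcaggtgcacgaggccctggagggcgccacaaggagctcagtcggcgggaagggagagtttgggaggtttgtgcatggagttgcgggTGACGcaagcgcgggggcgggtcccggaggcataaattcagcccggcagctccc
Jun, chr4:95052223-95052472, minus strand: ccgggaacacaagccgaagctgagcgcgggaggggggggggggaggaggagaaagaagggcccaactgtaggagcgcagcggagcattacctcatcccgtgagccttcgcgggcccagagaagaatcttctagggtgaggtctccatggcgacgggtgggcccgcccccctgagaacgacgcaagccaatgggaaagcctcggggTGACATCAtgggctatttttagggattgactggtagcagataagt
Junb, chr8:84978749-84978998, minus strand: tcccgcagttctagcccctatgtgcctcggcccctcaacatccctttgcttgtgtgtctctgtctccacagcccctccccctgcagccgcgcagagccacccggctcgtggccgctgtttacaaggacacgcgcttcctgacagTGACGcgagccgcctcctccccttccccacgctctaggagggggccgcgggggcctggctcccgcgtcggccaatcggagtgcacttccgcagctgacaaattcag

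The search covered the 250 bases before and 50 after the start, on both strands. TGACG or its reverse CGTCA was found 129 and 66 bases before the start in Fos, 60 bases before the RefSeq start in Fosb and 106 bases before it in Junb, and 20.8 % of the 32851 promoter windows in the table hold it. The Jun window held TGACATCA 45 bases before the start, where 3.62 % of all windows hold TGACATCA or its reverse TGATGTCA. None of the 7 windows found held TGACTCA or TGAGTCA (5.20 % of all windows), TGACGTCA, which contains TGACG (1.79 %), a CArG box, to which SRF binds (1.63 %), or an NF-κB type motif (1.63 %). The windows of Fosl2, Jund and Batf3 held none of these letters, and Fosl1 was not among the windows found. A match describes letters in the window and is not a binding site. Letters further upstream were not searched, so an absence holds for the window alone.

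RNA of immediate early genes is often short-lived through AU-rich elements in the 3′ UTR, and the extended form TTATTTATT was therefore searched for. It occurred once in Fos (base 655 of a 3′ UTR of 815 bases) and once in Fosl2 (base 3692 of 4653), in capitals here, and in none of the other 6 members.
Fos: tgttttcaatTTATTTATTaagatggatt
Fosl2: atttattttaTTATTTATTttaaatgttt
Of 21045 genes with a 3′ UTR, 7.65 % hold these letters, and among 3′ UTRs of similar length the share was 4.52 % for Fos and 21 % for Fosl2. The shorter form ATTTA was found 4 times in Fos, 8 in Fosl2, 4 in Jun and 2 in Junb. The medians in 3′ UTRs of similar length were 1, 8, 2 and 1. Fosb, Fosl1 and Jund held it 1 time each (medians 4, 1 and 1), and Batf3 0 times (median 0).

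Levels of different members can be compared only per length, here as normalized counts per kilobase of exon. In 5 % CTRL the order was Jun (712 ± 74.6, SD, n = 6), Junb (670 ± 142), Fosl1 (467 ± 36.6), Fosl2 (307 ± 11.7), Jund (61.9 ± 13), Fos (45.9 ± 8.50) and Fosb (7.98 ± 2.08). Jun and Junb, Junb and Fosl1, and Jund and Fos overlapped between libraries, and the other neighbours in this order did not. The RNA of the family in resting myotubes was therefore mostly Jun, Junb, Fosl1 and Fosl2, while Fos and Fosb, the members best known for fast induction, were scarce.

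The order per kilobase of exon differed between the groups, and it depends on the length used, as given below. In 5 % STIM the highest member was Junb at 960 ± 228 per kilobase, ahead of Jun at 769 ± 68.5, with overlap between both. In 1 % CTRL Junb (595 ± 153), Jun (533 ± 62.3), Fosl2 (453 ± 8.66) and Fosl1 (417 ± 57.9) each overlapped with the next. In 1 % STIM Jun stood clear of the rest at 810 ± 60.5 per kilobase, from 744 to 921, against 401 ± 13.3 for Fosl2, 393 ± 76.9 for Junb and 320 ± 25.3 for Fosl1. Fos (38.7 to 45.9) and Fosb (4.34 to 7.98) kept the lowest mean levels of the tested members per kilobase in each group.

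**Figure D1:**
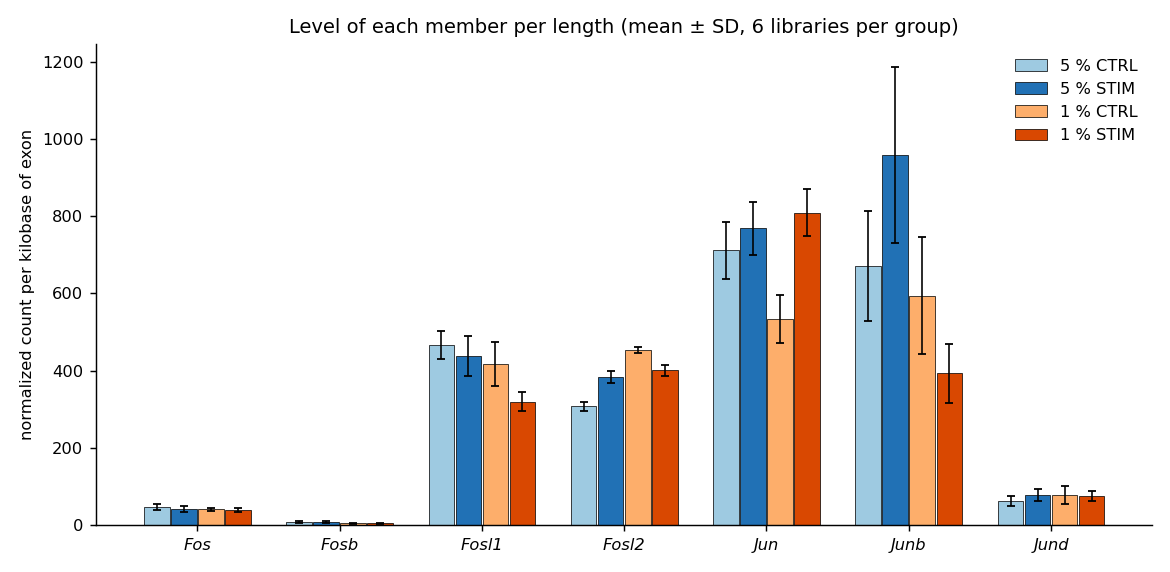
Mean normalized count per kilobase of exon for the 7 tested members (bars, SD as error bars, 6 libraries per group) in 5 % CTRL, 5 % STIM, 1 % CTRL and 1 % STIM. Jun reached 810 per kilobase in 1 % STIM and Junb 960 in 5 % STIM, while Fosb stayed at or below 7.98 in each group.

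As a share of the summed signal of the family per kilobase, Jun made up 31.4 % ± 0.63 in 5 % CTRL and 39.7 % ± 2.43 in 1 % STIM, and Junb made up 29.2 % ± 3.13 and 19.2 % ± 2.95. Fosl2 went from 13.7 % ± 1.66 in 5 % CTRL to 21.8 % ± 3.70 in 1 % CTRL. The shares depend on the length used, since Fosl2 has a long 3′ UTR: per coding length it took 37.2 % ± 3.13 in 5 % CTRL. Per coding length Fosl2 had the highest mean share in each group, ahead of Jun. It took 39.2 % ± 2.70 in 5 % STIM, against 25.2 % ± 1.87 for Jun, and 47.0 % ± 1.39 in 1 % STIM, against 30.5 % ± 1.70. The rank of Jun and Junb above Fosl2 therefore holds per exon length alone. In 1 % STIM it did not hold for Junb even there, with 19.2 % against 19.7 % for Fosl2. The ratio of Jun to Junb normalized counts, which uses no length, was 1.5 ± 0.18 in 5 % CTRL, 1.17 ± 0.31 in 5 % STIM, 1.3 ± 0.27 in 1 % CTRL and 2.95 ± 0.64 in 1 % STIM. The libraries of 1 % STIM (2.26 to 3.90) did not overlap with those of the other groups, whose highest ratio was 1.82.

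Stimulation did not move the members in the same way under both O2 levels. Under 5 % O2, 1 of the 7 tested members rose (Fosl2) and none fell, against 9.44 % of the 14541 genes tested that were higher and 12.0 % that were lower in 5 % STIM than in 5 % CTRL (limma, adjusted p under 0.05). At an unadjusted p under 0.05, Junb was the single further member. Under 1 % O2, 1 member rose (Jun) and 2 fell (Fosl1 and Fosl2), where 11.5 % of all genes were higher and 10.8 % lower in 1 % STIM than in 1 % CTRL. Junb, here with a negative value, was again the single further member at an unadjusted p under 0.05. Fos and Fosb, classical markers of a recent stimulus, were called in neither.

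The test of the difference itself, the response to stimulation under 1 % O2 minus that under 5 % O2, called 3 of the 7 members. Jun was the 1 member with a more positive response under 1 % O2, and Fosl2 and Junb were the 2 with a more negative one, where 5.88 % of all genes were higher and 5.43 % lower in this interaction. It is a comparison of 4 groups of 6 libraries with a common estimate of the spread.

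The step from 5 % to 1 % O2 moved 3 members in each state. Without stimulation, Fosl2 was higher and Fosb and Jun were lower in 1 % CTRL than in 5 % CTRL, which is 1 higher and 2 lower of 7, where 29.4 % of all genes were higher and 30.5 % lower. With stimulation, 3 were lower in 1 % STIM than in 5 % STIM, namely Fosb, Fosl1 and Junb, and 0 were higher, where 29.0 % of all genes were higher and 28.4 % lower. At an unadjusted p under 0.05, Fosl2 was higher in 1 % STIM than in 5 % STIM as well, and it was called after rescaling libraries to an equal total and with a GC trend removed.

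Scaling moved the split of calls over all genes. After rescaling libraries to an equal total, 62.1 % of the calls in 5 % STIM against 5 % CTRL, 62.4 % in 1 % STIM against 1 % CTRL, 62.7 % in 1 % CTRL against 5 % CTRL and 63.2 % in 1 % STIM against 5 % STIM were higher, against 44.0 %, 51.4 %, 49.0 % and 50.4 % with the size factors of the authors. The median of all genes moved by at most 0.08 on the log2 scale, and no called member changed direction.

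**Figure D2:**
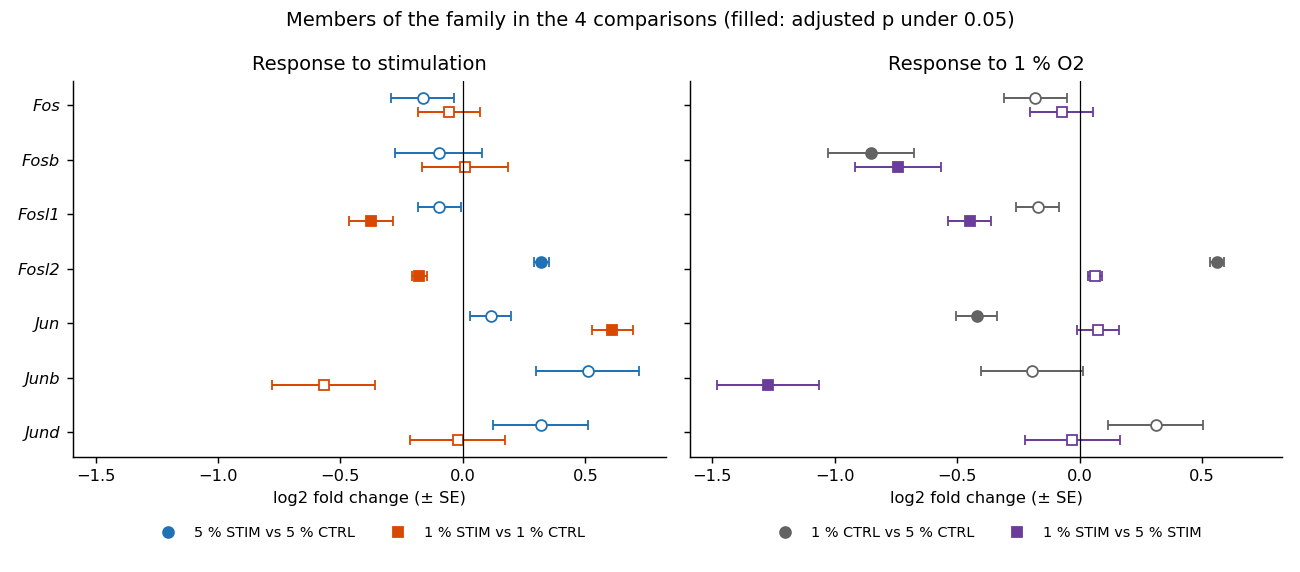
Log2 fold change (x axis, bars are standard errors from limma) of the 7 tested members, for stimulation under each O2 level (left) and for 1 % against 5 % O2 in each state (right), with filled symbols where the adjusted p-value was under 0.05. Fosl2 lies at 0.32 and −0.18 and Junb at 0.51 and −0.57 on the left, on opposite sides of 0, and Fosb lies at −0.85 and −0.74 on the right.

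Fos encodes the FOS protein, the prototype of the immediate early response. Its normalized counts (lowest, median and highest of 6 libraries) were 79.6, 106 and 137 in 5 % CTRL, 68.7, 93.5 and 120 in 5 % STIM, 80.6, 91.7 and 111 in 1 % CTRL and 75, 86.2 and 116 in 1 % STIM. All 4 groups overlapped. The log2 fold change was −0.16 (standard error 0.13, limma adjusted p = 0.403) with stimulation under 5 % O2 and −0.06 (0.13, adjusted p = 0.820) under 1 % O2. Within 2 standard errors, these responses lay between −0.42 and 0.09 and between −0.31 and 0.20, so that an induction of Fos RNA above 0.20 on the log2 scale lay outside both intervals at this time point.

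Fosb, whose protein and its truncated form deltaFOSB accumulate with repeated stimulation in other tissues, was the least abundant of the tested members. Its normalized counts were 40.9, 45.8 and 75.4 in 5 % CTRL and 36.3, 44.2 and 65.9 in 5 % STIM, against 18.7, 30.7 and 32.4 in 1 % CTRL and 19.6, 27.0 and 35.1 in 1 % STIM (lowest, median and highest). Each library at 1 % O2 was below each library at 5 % O2, whether stimulated or not.

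Fosb was lower by 0.85 on the log2 scale in 1 % CTRL than in 5 % CTRL (standard error 0.18, limma adjusted p = 8.83e-05, below the 5 % CTRL mean in 6 of 6 libraries), a change of −44.5 %. It was also lower in 1 % STIM than in 5 % STIM, with a log2 fold change of −0.74 (0.18, adjusted p = 0.000494, 6 of 6 libraries). Stimulation gave log2 fold changes of −0.10 (0.18) at 5 % O2 and 0.01 (0.18) at 1 % O2, neither past the threshold. With at most 75.4 normalized counts in a library, Fosb is also the member whose values rest on the fewest reads.

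Fosl1 encodes FRA1, a FOS protein without a transactivation domain that is known from proliferating and migrating cells. The normalized counts were 857, 957 and 1036 in 5 % CTRL and 762, 863 and 1031 in 5 % STIM, which overlapped widely. In 1 % CTRL they were 621, 883 and 930, and in 1 % STIM 599, 630 and 714, the lowest group. Among the 6 libraries of 1 % CTRL, 5 lay between 847 and 930 and replicate 1 lay at 621.

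With stimulation under 1 % O2, Fosl1 fell by 0.37 on the log2 scale (standard error 0.09, limma adjusted p = 0.00297, below the 1 % CTRL mean in 6 of 6 libraries), and under 5 % O2 the log2 fold change was −0.10 (0.09, adjusted p = 0.497). The difference between both responses was −0.28 (0.13, adjusted p = 0.172), so the response was not shown to differ with O2. Without replicate 1 of 1 % CTRL that difference was −0.37 and passed the threshold (adjusted p = 0.00757, over all alternatives 0.00757 to 0.265). Fosl1 was lower in 1 % STIM than in 5 % STIM by 0.45 (0.09, adjusted p = 0.000138, 6 of 6 libraries) without overlap.

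Between the unstimulated groups the log2 fold change of Fosl1 was −0.17 (0.09, adjusted p = 0.101) and passed the threshold with DESeq2 (adjusted p = 0.0473) and with a trend of length (0.0360) or GC content (0.00849) removed, with a range of 0.00849 to 0.396 over all alternatives. Its antisense partner Ccdc85b, with normalized counts of 352 ± 56.9, 401 ± 22.5, 360 ± 34.5 and 329 ± 18.4 in 5 % CTRL, 5 % STIM, 1 % CTRL and 1 % STIM, was also lower in 1 % STIM than in 5 % STIM, with a log2 fold change of −0.29 (0.08, adjusted p = 0.00183). Its response to stimulation also differed between the O2 levels, by −0.33 (0.11, adjusted p = 0.0462), with the sign that the difference for Fosl1 had. Its part in the values of Fosl1 was not tested.

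Fosl2, which encodes FRA2, had the least spread of the family and moved most clearly. Its normalized counts were 2859, 2957 and 3162 in 5 % CTRL, 3553, 3667 and 3935 in 5 % STIM, 4274, 4371 and 4484 in 1 % CTRL and 3737, 3872 and 4023 in 1 % STIM. Resting myotubes at 5 % O2 were the lowest group and resting myotubes at 1 % O2 the highest. The stimulated groups lay between them and overlapped only with each other.

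Stimulation raised Fosl2 by 0.32 on the log2 scale, or 24.9 %, under 5 % O2 (standard error 0.03, limma adjusted p = 3.50e-10, above the 5 % CTRL mean in 6 of 6 libraries). Under 1 % O2 it lowered Fosl2, with a log2 fold change of −0.18, or −11.6 % (0.03, adjusted p = 2.52e-05, below the 1 % CTRL mean in 6 of 6 libraries). The difference between the responses was −0.50 (0.04, adjusted p = 2.00e-10). The step to 1 % O2 raised Fosl2 by 0.56, or 47.6 %, in resting myotubes (0.03, adjusted p = 2.26e-17, 6 of 6 libraries).

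In stimulated myotubes the O2 levels gave a log2 fold change of 0.06 for Fosl2 (0.03, adjusted p = 0.0746, above the 5 % STIM mean in 6 of 6 libraries). This value depended on the scaling: after rescaling libraries to an equal total it was 0.13 with an adjusted p = 0.000339, and adjusted p-values over all alternatives ran from 0.000339 to 0.176. It also passed the threshold without replicate 2 of 5 % STIM (0.07, adjusted p = 0.0488), without replicate 4 of 5 % STIM (0.08, adjusted p = 0.0270) or without replicate 2 of 1 % STIM (0.07, adjusted p = 0.0474). The called changes of Fosl2 kept their side of the threshold under each alternative tried.

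**Figure D3:**
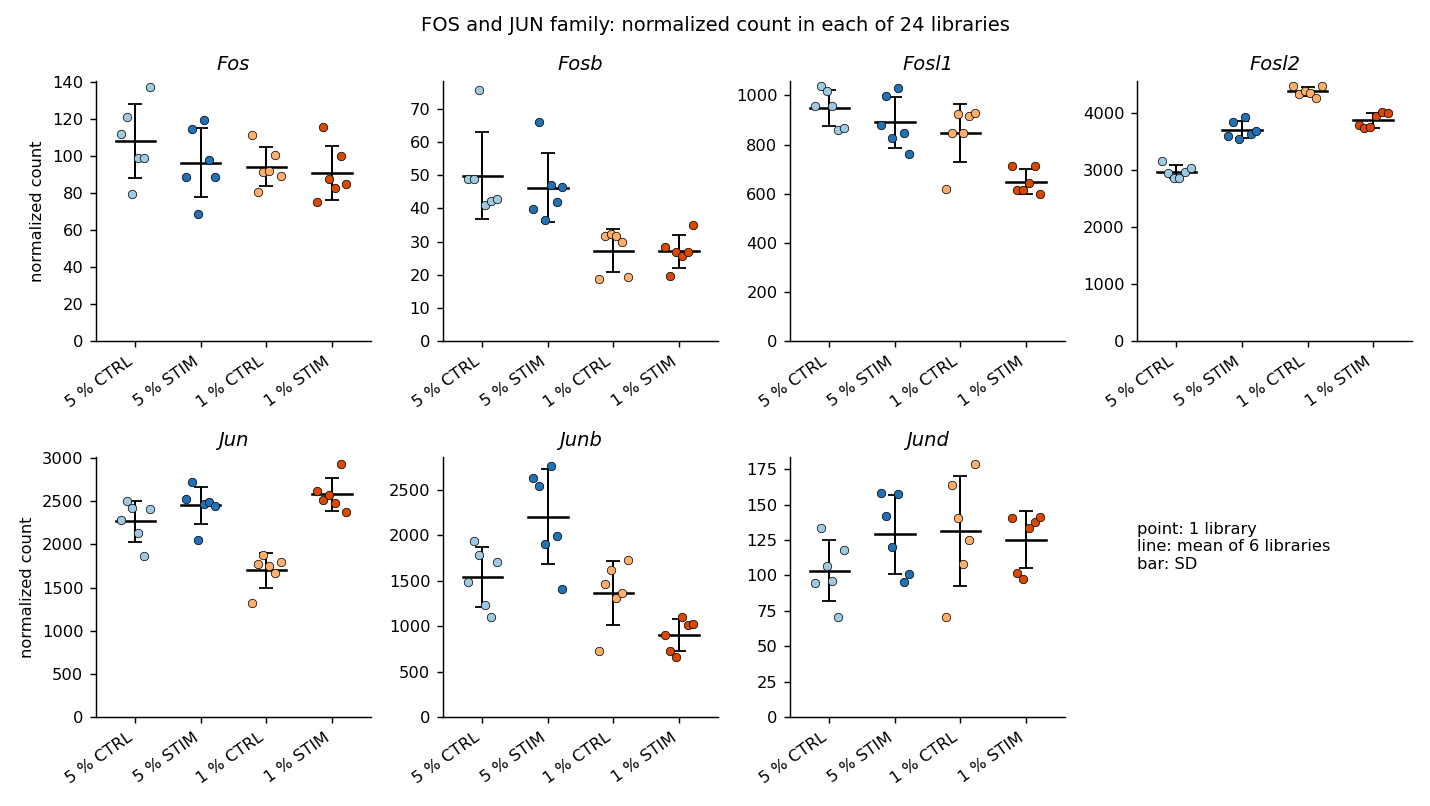
Normalized count (y axis from 0, own scale per gene) of the 7 tested members in each of the 24 libraries, with the mean (line) and SD (bar) of the 6 libraries of a group. Fosl2 separates 5 % CTRL (2859 to 3162) and 1 % CTRL (4274 to 4484) from both stimulated groups, Jun is low in 1 % CTRL (1317 to 1874), and Fos overlaps in all 4 groups.

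Jun encodes JUN (c-Jun), the strongest transactivator of the JUN proteins and the classical target of the kinase JNK. Its normalized counts were 1861, 2347 and 2509 in 5 % CTRL, 2056, 2484 and 2724 in 5 % STIM, 1317, 1767 and 1874 in 1 % CTRL and 2374, 2544 and 2936 in 1 % STIM. Resting myotubes at 1 % O2 stood low, below all stimulated libraries, and the stimulated groups of both O2 levels overlapped.

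With stimulation under 1 % O2, Jun rose by 0.61 on the log2 scale, or 52.6 % (standard error 0.08, limma adjusted p = 8.94e-06, above the 1 % CTRL mean in 6 of 6 libraries, no overlap). Under 5 % O2 the log2 fold change was 0.11 (0.08, adjusted p = 0.381, above the 5 % CTRL mean in 5 of 6 libraries). The difference between the responses was 0.50 (0.12, adjusted p = 0.00840). In resting myotubes the step to 1 % O2 lowered Jun, with a log2 fold change of −0.42, or −25.3 % (0.08, adjusted p = 0.000176, 6 of 6 libraries), and in stimulated myotubes the O2 levels gave 0.08 (0.08, adjusted p = 0.465).

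Without replicate 1 of 1 % CTRL, the lowest library, the rise of Jun with stimulation under 1 % O2 was 0.54 and the fall of Jun from 5 % CTRL to 1 % CTRL was −0.35 on the log2 scale, and both kept their side of the threshold. Junos, the antisense gene over 7.28 % of the exon bases of Jun, had mean normalized counts of 5.78 to 12.5 in the groups and was higher in 1 % CTRL than in 5 % CTRL (log2 fold change 0.85, standard error 0.31, limma adjusted p = 0.0173), where Jun was lower.

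Junb encodes JUNB, a weaker activator than JUN that can oppose it and is known in muscle for its link to fibre size. It had the widest spread of the abundant members. The normalized counts were 1098, 1598 and 1938 in 5 % CTRL, 1411, 2265 and 2762 in 5 % STIM, 724, 1415 and 1726 in 1 % CTRL and 659, 962 and 1098 in 1 % STIM. The stimulated groups did not overlap, each library of 1 % STIM being below each of 5 % STIM.

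Junb was lower in 1 % STIM than in 5 % STIM with a log2 fold change of −1.27, or −58.6 % (standard error 0.21, limma adjusted p = 2.16e-05, 6 of 6 libraries), the largest difference of a member in any of the comparisons. Its responses to stimulation had opposite signs. They were 0.51 (0.21, adjusted p = 0.0924, above the control mean in 5 of 6 libraries) under 5 % O2 and −0.57 (0.21, adjusted p = 0.0568, below it in 6 of 6 libraries) under 1 % O2, neither past the threshold, while their difference of −1.08 was (0.30, adjusted p = 0.0214). In resting myotubes the step to 1 % O2 gave −0.20 (0.21, adjusted p = 0.441).

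The calls of Junb depended on the processing. The response under 5 % O2 passed the threshold with a GC trend removed (0.51, adjusted p = 0.0226), without replicate 6 of 5 % STIM (0.63, adjusted p = 0.0350) or without replicate 1 of 1 % CTRL, a library it does not compare (adjusted p = 0.0395), and its adjusted p-values ran from 0.0226 to 0.195 over all alternatives. The response under 1 % O2 passed it without replicate 1 of 1 % CTRL (−0.74, adjusted p = 0.00464), without replicate 6 of 5 % STIM (0.0422) or replicate 4 of 1 % STIM (0.0481), with edgeR (0.0421) and DESeq2 (0.0161) and with a trend of length (0.0452) or GC content (0.0288) removed, with a range of 0.00464 to 0.132. The difference between the responses missed it with limma voom (−1.02, adjusted p = 0.0506). The transcript of Junb has 62.6 % GC. Prdx2, the antisense gene over 7.52 % of its exon bases, had mean normalized counts of 5277 to 5709 and was called between the resting groups alone (log2 fold change 0.11, adjusted p = 0.0322).

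Jund encodes JUND, commonly described as a brake on proliferation. Its normalized counts were 70.5, 102 and 133 in 5 % CTRL, 95.1, 131 and 158 in 5 % STIM, 70.8, 133 and 178 in 1 % CTRL and 97.2, 136 and 141 in 1 % STIM. All groups overlapped, and no comparison was called. The largest values were 0.32 (standard error 0.19, limma adjusted p = 0.271) for stimulation under 5 % O2 and 0.31 (0.19, adjusted p = 0.177) for 1 % CTRL against 5 % CTRL. The latter passed the threshold without replicate 1 of 1 % CTRL, at 0.47 and an adjusted p = 0.0157, with a range of 0.0157 to 0.407 over all alternatives. Gm11175, the antisense gene over 52.6 % of its exon bases, had mean normalized counts of 2.89 to 10.7.

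Batf3 had 0 reads in each library for which reads were recovered and a value of 0 in the others, which allows a normalized count of up to 2.85 to 3.14 per library (a limit of 3 reads, covering counting error only). Its expression was not detectable at this depth in any group.

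Of 12 tested other basic leucine zipper genes that pair or compete with the family, 8 rose and 0 fell in 5 % STIM against 5 % CTRL (median log2 fold change 0.21, over all genes −0.01), where 9.44 % of all genes rose and 12.0 % fell. In 1 % STIM against 1 % CTRL, 6 rose, 0 fell and 6 were not called (0.15, over all genes −0.00), where 11.5 % of all genes rose and 10.8 % fell. At 1 % O2, 2 were higher and 8 lower in resting myotubes (−0.27), where 29.4 % of all genes were higher and 30.5 % lower, and 1 was higher and 8 lower in stimulated ones (−0.38), where 29.0 % were higher and 28.4 % lower. The count for resting myotubes was 2 higher and 7 lower without replicate 1 of 1 % CTRL, Jdp2 being no longer called. The 2 genes called in the interaction, Cebpd and Jdp2, both had a more negative response under 1 % O2. Maff was called as well without replicate 1 of 1 % CTRL (−0.20, adjusted p = 0.0330), and Jdp2 was no longer called without replicate 4 of 1 % STIM, replicate 5 of 5 % CTRL or replicate 5 of 5 % STIM. With stimulation under 1 % O2, the rise of Mafk was no longer called without replicate 2, 3, 5 or 6 of 1 % CTRL or of 1 % STIM. Cebpb was called there as rising without replicate 6 of 1 % CTRL or replicate 3 of 1 % STIM. Cebpd was called as falling without replicate 4 of 5 % CTRL or replicate 6 of 5 % STIM.

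Atf3, a stress-induced repressor that pairs with JUN proteins, rose from 163 ± 27.2 to 311 ± 24.3 normalized counts under 5 % O2 (log2 fold change 0.94, SE 0.11, limma adjusted p = 3.61e-08) and from 85.0 ± 15.8 to 152 ± 21.5 under 1 % O2 (0.84, adjusted p = 2.30e-07). Atf4, the factor of the integrated stress response, rose by 0.37 and 0.36 on the log2 scale. Mafg, a small MAF protein, rose by 0.23 and 0.14, and Jdp2, a repressor of AP-1, rose by 0.25 under 5 % O2 and had a value of 0.05 (adjusted p = 0.484) under 1 % O2. All 4 were lower at 1 % O2 than at 5 % O2 in both states, Atf3 by 0.94 and 1.03.

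**Figure D4:**
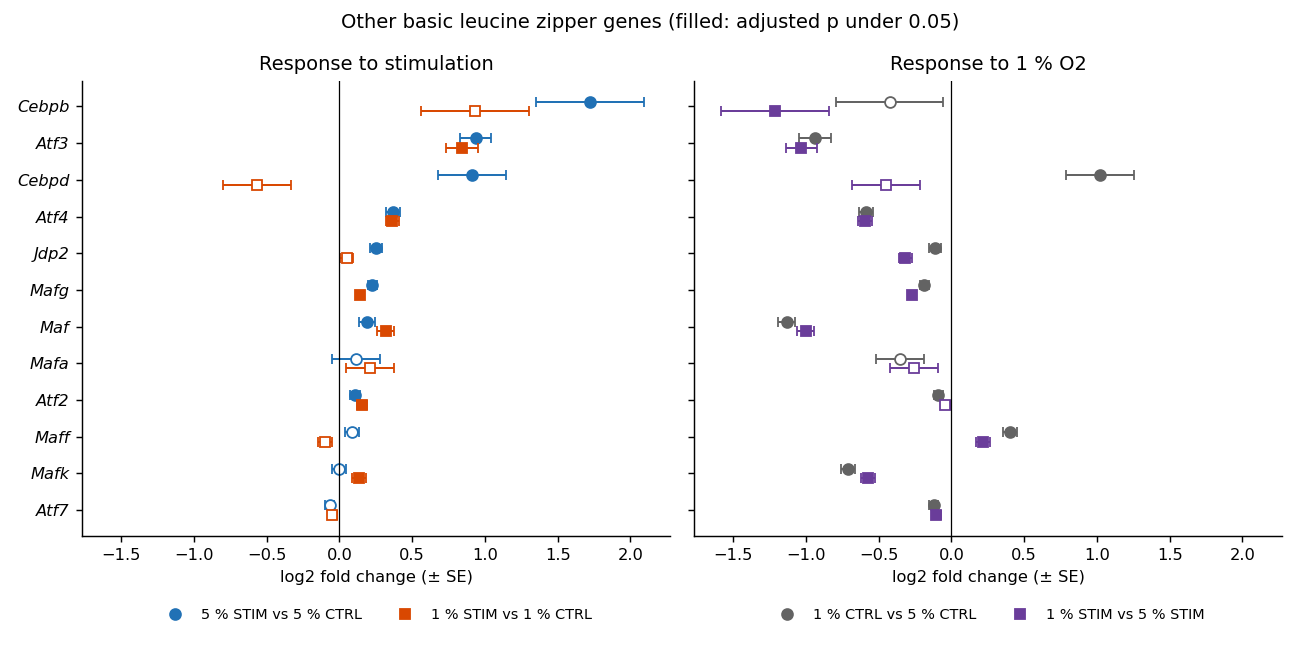
Log2 fold change (x axis, bars are standard errors from limma) of the 12 tested other basic leucine zipper genes for stimulation (left) and for 1 % against 5 % O2 (right), ordered by the response under 5 % O2, with filled symbols where the adjusted p-value was under 0.05. Of the filled symbols on the left, 8 for 5 % O2 and 6 for 1 % O2, each lies above 0, and Atf3 lies at 0.94 and 0.84.

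Of 32 tested kinases and factors upstream of the family, 2 rose and 3 fell with stimulation under 5 % O2 (median −0.03), where 9.44 % of all genes rose and 12.0 % fell. Under 1 % O2, 4 rose and 7 fell (median −0.03), where 11.5 % of all genes rose and 10.8 % fell. Srf, which encodes the factor that binds CArG boxes with ELK proteins or MRTFs as partners, fell by 0.38 on the log2 scale under 5 % O2 (limma adjusted p = 3.93e-06) and by 0.19 under 1 % O2. Elk3 fell by 0.20 and Camk2g, a Ca2+-dependent kinase, fell by 0.13 under 5 % O2, while Mrtfb and Camk2d rose by 0.19 and 0.09. The call of Camk2d (limma adjusted p = 0.0492) was lost with most single libraries left out, such as replicate 3 of 5 % CTRL (adjusted p = 0.143). At 1 % O2 compared with 5 % O2, 10 were higher and 14 lower in resting myotubes (29.4 % and 30.5 % of all genes) and 10 higher and 13 lower in stimulated ones (29.0 % and 28.4 %). In the interaction 1 gene, Atf1, was called (0.21), where 5.88 % of all genes were higher and 5.43 % lower. Mapk7 (−0.22, adjusted p = 0.0288) and Map2k1 (−0.17, adjusted p = 0.0388) were called there as well without replicate 1 of 1 % CTRL, and Map2k1 was also called without replicate 4 or 6 of 1 % STIM or replicate 6 of 5 % STIM, and Srf was called without replicate 2 of 5 % STIM (0.25).

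Factors that limit FOS and JUN RNA or protein moved in both directions. Under 5 % O2, 2 of 15 tested genes rose and 4 fell with stimulation (median −0.08), where 9.44 % of all genes rose and 12.0 % fell. Under 1 % O2, 3 rose and 4 fell (median −0.04), where 11.5 % of all genes rose and 10.8 % fell. With replicate 1 of 1 % CTRL left out, 2 rose and 7 fell under 5 % O2, and 4 rose and 4 fell under 1 % O2. With replicate 2 of 5 % CTRL left out instead, the rise of Sik1 and the fall of Cop1 under 5 % O2 were no longer called. Zfp36l1, whose protein binds AU-rich elements and speeds decay of the RNA, rose under both O2 levels, by 0.39 and 0.36 on the log2 scale (limma adjusted p = 4.87e-07 and 2.04e-06). Its paralogue Zfp36l2 had a log2 fold change of 0.06 (adjusted p = 0.214) under 5 % O2 and fell by 0.45 under 1 % O2 (adjusted p = 2.35e-12), responses that differed by −0.51 (0.05, adjusted p = 2.46e-09), and it was lower at 1 % O2 by 1.13 in resting and by 1.64 in stimulated myotubes. Tob1, which recruits the CCR4-NOT deadenylase, fell by 0.23 and 0.15, and Fbxw7, part of a ubiquitin ligase for JUN, fell by 0.12 and 0.14. Fbxw7 went from 3594 ± 127 normalized counts in 5 % CTRL to 1967 ± 58.5 in 1 % CTRL, a log2 fold change of −0.87, and Hnrnpd was higher there by 0.58. The list had 6 genes higher and 6 lower at 1 % O2 in resting myotubes (29.4 % and 30.5 % of all genes), and 6 higher and 4 lower in stimulated ones (29.0 % and 28.4 %). In the interaction 3 were higher and 2 lower (median 0.06), where 5.88 % of all genes were higher and 5.43 % lower. The higher value of Cop1 there (0.15, limma adjusted p = 0.0381) was no longer called without, for example, replicate 3 of 5 % CTRL (adjusted p = 0.0702).

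Textbook targets of AP-1 were mostly lower at 1 % O2. Of 26 tested genes, 4 were higher and 17 lower in 1 % CTRL than in 5 % CTRL (median −0.53, over all genes 0.00), where 29.4 % of all genes were higher and 30.5 % lower. In 1 % STIM against 5 % STIM, 1 was higher and 19 lower (median −0.63), where 29.0 % of all genes were higher and 28.4 % lower. With stimulation, 9 rose and 7 fell under 5 % O2 (median 0.09, 9.44 % and 12.0 % of all genes) and 9 rose and 8 fell under 1 % O2 (median 0.05, 11.5 % and 10.8 %), with 3 higher and 6 lower in the interaction (5.88 % and 5.43 %). Without replicate 1 of 1 % CTRL, 12 rose and 7 fell under 5 % O2, 5 were higher and 18 lower between the resting groups, 1 was higher and 20 lower between the stimulated groups, and 3 were higher and 8 lower in the interaction. With replicate 2 of 5 % CTRL left out instead, the rises of Gclc, Trp53 and Mt2 under 5 % O2 were no longer called, and Tgfb1 was called as rising.

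Il6, a cytokine released by contracting muscle, went from 19.1 ± 3.01 to 82.8 ± 9.55 normalized counts with stimulation under 5 % O2 (log2 fold change 2.07, SE 0.22, limma adjusted p = 4.02e-09) and from 3.86 ± 1.61 to 14.2 ± 4.64 under 1 % O2 (1.65, adjusted p = 3.39e-07). Lif, a cytokine of the same family, rose under 5 % O2 and fell under 1 % O2. It went from 899 ± 81.9 to 1505 ± 173 under 5 % O2 (0.74) and from 1008 ± 26.3 to 536 ± 49.1 under 1 % O2 (−0.91), and its responses differed by −1.65 (0.09, adjusted p = 8.79e-14). Hmox1, which degrades haem, rose by 0.89 and 0.26 with stimulation, and Plau, the urokinase gene, fell by 0.59 and 0.76.

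Other immediate early genes moved with stimulation in both directions. Of 26 tested, 11 rose and 6 fell with stimulation under 5 % O2 (median 0.13), where 9.44 % of all genes rose and 12.0 % fell, and 9 rose and 11 fell under 1 % O2 (median −0.05), where 11.5 % rose and 10.8 % fell. Nr4a1, a nuclear receptor induced by contraction, went from 302 ± 16.8 to 730 ± 40.1 normalized counts under 5 % O2 (log2 fold change 1.27, SE 0.06, limma adjusted p = 1.26e-17) and from 739 ± 50 to 1702 ± 212 under 1 % O2 (1.20, adjusted p = 4.97e-17). Gem, a small GTPase that limits Ca2+ channels, rose by 1.25 and 0.31, Ier3 rose by 0.97 and fell by 0.29, and the kinase gene Sgk1 rose by 0.76 and 0.87. At 1 % O2, 7 were higher and 18 lower in resting myotubes (median −0.46, 29.4 % and 30.5 % of all genes) and 7 higher and 17 lower in stimulated ones (median −0.56, 29.0 % and 28.4 %), with 2 higher and 6 lower in the interaction (5.88 % and 5.43 %). The interaction had 2 higher and 7 lower without replicate 1 of 1 % CTRL.

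Genes whose pattern was most like that of a member were taken as those with the highest Pearson r over the 24 libraries among 10795 genes with a mean normalized count of at least 100. The points share libraries, depth and the 4 groups, so r is a description. Fosl2 had the closest neighbours, with Ier3 (r = 0.971) and Kif21b (0.963). Kif21b went from 356 in 5 % CTRL to 719 in 5 % STIM, 1064 in 1 % CTRL and 848 in 1 % STIM, the same order of groups as Fosl2. Junb was most like Gadd45b (0.942) and Slc25a29 (0.934), Jund most like Smdt1 (0.920) and Hist1h2bc (0.905), Fosl1 most like Slc35e4 (0.915) and Ccdc86 (0.907), and Fosb most like Rnf44 (0.903) and Gse1 (0.902).

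Jun was most like Bcl6 (0.833), a repressor gene, and Hspa1b (0.814), an inducible heat shock gene, whose mean normalized counts were 282 in 5 % CTRL, 393 in 5 % STIM, 233 in 1 % CTRL and 435 in 1 % STIM. Fos, with no called change, had the weakest neighbours, Gnai2 (0.626) and Aifm2 (0.618).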

How the data were processed

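RNA of 24 libraries of C2C12 myotubes was measured in 4 groups of 6, taken from the labels of the deposited samples. Per the study's methods, the authors prepared libraries of mRNA that keep the strand, aligned reads from a single end to GRCm38 (STAR 2.5.4b and RSEM 1.3.0 are named in the submitters' processing notes) and divided the gene counts by DESeq2 size factors. The expression signal the authors deposited is this normalized count, unfiltered. Size factors were 0.955 to 0.992 at 5 % O2 and 1.02 to 1.05 at 1 % O2. A second deposited table holds the log2 fold changes, p-values and calls of the authors' own limma comparisons and was not used. No column of values was left unmapped. The steps between low values gave back whole reads for 100.0 % of values in 22 libraries, and 2 libraries, whose step was too close to 1 to be checked, were left out of tests on reads. Replicates differed by more than sampling noise (chi-square per gene 2.54 to 21.3).

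The 14541 genes that reached a normalized count of 10 in 6 or more libraries were fitted as log2(normalized count + 1) with limma 3.58.1 (R 4.3.3, lmFit, contrasts.fit, eBayes with trend and robust), all 4 groups in a single fit without a block, two-sided, with Benjamini-Hochberg adjustment over all genes tested and a threshold of 0.05. A fold change is on this scale, which understates that of low genes. The fit was tested on simulated counts drawn without a GC trend or a library that stands apart. That test does not cover these features of the data. Exon lengths and overlaps came from GENCODE M21, in which 99.4 % of the genes listed were found.

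The members, the lists of other basic leucine zipper genes, upstream kinases and factors, limiting factors, AP-1 targets, immediate early genes and cell markers, and the tests were chosen with earlier results of these data known. Named beside the 8 members are up to 4 genes per list with the largest change, and the 2 genes most correlated with each member. The former were taken among those called in 5 % STIM against 5 % CTRL whose higher group had a mean of 50 or more. Some, but not all, of the genes behind counts of 5 or fewer are named as well. Camk2d, Atf1, Cebpb, Cebpd, Maff, Mafk, Mapk7, Map2k1, Zfp36l2, Cop1, Sik1, Gclc, Trp53, Mt2, Tgfb1, Acta1, Mylpf and Itgam were named after their values were seen. The motif TGACATCA was added to the promoter search after the other motifs. Alternatives were a pseudocount of 10, no filter, the replicate number as a block, a threshold of 0.01, a fit of only the groups compared, rescaling libraries to an equal total, edgeR 4.0.16 (quasi-likelihood, TMM), DESeq2 1.42.0 and limma voom on whole reads, a trend with exon length removed, coding length for shares, each library left out in turn and, chosen after seeing the data, a trend with GC content removed.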

Additional observations from a re-analysis of the deposited data

Results flagged for a closer look

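The response to stimulation differed between the O2 levels for 3 members in the interaction of the limma fit, given as the response under 1 % O2 minus that under 5 % O2. It was −0.50 for Fosl2 (adjusted p = 2.00e-10), 0.50 for Jun (adjusted p = 0.00840) and −1.08 for Junb (adjusted p = 0.0214) on the log2 scale.

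Of 28 groups of 6 libraries checked over the 7 tested members, 4 held a library far from the others by Dixon's criterion, where chance flags about 1 in 20 groups. Fosb stood at 75.4 normalized counts in replicate 3 of 5 % CTRL, where the next library had 48.8, and at 65.9 in replicate 2 of 5 % STIM, where the next had 47.0. Fosl1 stood at 621 and Jun at 1317 in replicate 1 of 1 % CTRL, the library that also stood apart over all genes. The called changes of Fosb kept their side of the threshold without either of its libraries.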

How the results depend on the processing

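Of 378 values of single members recomputed under alternatives other than leaving out a library, 366 kept their side of the threshold, 10 newly passed it and 2 no longer did, and of 840 with 1 of the 24 libraries left out, 830 kept it and 10 newly passed it. No called value changed sign, and each call of a member between a pair of groups, and those of Fosl2 and Jun in the interaction, was kept under the alternatives and libraries left out that were run. The Junb interaction missed the threshold with limma voom (−1.02, adjusted p = 0.0506) and at a threshold of 0.01 (adjusted p = 0.0214). Fosl1 between the resting groups passed it with DESeq2 (−0.19, adjusted p = 0.0473), with the length trend removed (−0.19, adjusted p = 0.0360) and with the GC trend removed (−0.21, adjusted p = 0.00849), and Fosl2 in 1 % STIM against 5 % STIM passed it with the GC trend removed (0.07, adjusted p = 0.0302). The cause was not tested.

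The number of members called in 5 % STIM against 5 % CTRL, 1 in the fit reported, was 2 with the GC trend removed and 1 to 2 with a library left out. With a library left out, members called numbered 3 to 4 in each of the other comparisons. At a threshold of 0.01, genes called numbered 1944 of 3115 in 5 % STIM against 5 % CTRL and 830 of 1645 in the interaction. Per coding length, shares of the family signal in 5 % CTRL were 1.16 % for Fos, 0.60 % for Fosb, 14.2 % for Fosl1, 37.2 % for Fosl2, 27.6 % for Jun, 18.1 % for Junb and 1.22 % for Jund, in place of 2.03 %, 0.35 %, 20.7 %, 13.7 %, 31.4 %, 29.2 % and 2.70 % per exon length, since UTRs make up unequal parts of the transcripts.

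Libraries with the same replicate number did not deviate together (r from −0.148 to 0.155 over 36 pairs, 2 pairs over 0.1, 0 libraries closest to their own number in every group), so the numbers pair nothing. With the replicate number as a block, genes called were 3190, 3320, 8730, 8350 and 1710 in the order used for the comparisons, against 3115, 3245, 8708, 8346 and 1645, and the members called were 1, 3, 3, 3 and 3 in both.

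Fosb, Fos and Jund rest on the fewest reads, and the spread between replicates, above the sampling noise of the counts, limits the precision of Junb and Jund.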

Other observations

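Of 14 myotube markers, 0 rose and 5 fell with stimulation under 5 % O2 (median log2 fold change −0.07), and 0 rose and 3 fell under 1 % O2 (median −0.05). Of all genes, 9.44 % rose and 12.0 % fell under 5 % O2, and 11.5 % rose and 10.8 % fell under 1 % O2. In 1 % CTRL against 5 % CTRL 2 were higher and 7 lower, in 1 % STIM against 5 % STIM 2 higher and 6 lower, and 1 was higher in the interaction. In the same order, 29.4 %, 29.0 % and 5.88 % of all genes were higher and 30.5 %, 28.4 % and 5.43 % lower. Without replicate 1 of 1 % CTRL, 5 fell under 1 % O2 (Acta1 and Mylpf in addition), 3 were higher between the resting groups (Mylpf in addition) and 2 were higher and 2 lower in the interaction. With 1 of the other libraries left out, 3 to 5 fell under 5 % O2 (3 without replicate 3 of 5 % CTRL or replicate 4 of 5 % STIM) and 0 to 3 were called in the interaction. The count there was 0 without replicate 5 of 1 % CTRL, replicate 1, 3 or 5 of 1 % STIM, replicate 2 or 3 of 5 % CTRL or replicate 4 of 5 % STIM, 2 without replicate 2 of 1 % STIM, replicate 6 of 5 % CTRL or replicate 5 of 5 % STIM, and 3 without replicate 6 of 1 % STIM. Of 6 myoblast and cell cycle markers, 3 rose and 1 fell with stimulation under 5 % O2 (median 0.27) and 1 rose and 1 fell under 1 % O2 (median 0.00). At 1 % O2, 4 were higher and 1 lower in resting myotubes (median 0.59) and 3 higher and 1 lower in stimulated ones (median 0.29). The shares of all genes given for the myotube markers apply to these and the following counts as well. Of the 10 markers of immune, endothelial and neural cells, 2 passed the filter, and 1 of them, Itgam, was lower in 1 % CTRL than in 5 % CTRL, a call that was lost without replicate 2 or 3 of 5 % CTRL. The part of these shifts in the values of the members was not tested.

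The summed level of the 4 FOS genes per kilobase was 828 ± 35.3 (SD, n = 6) in 5 % CTRL, 870 ± 72.2 in 5 % STIM, 915 ± 52.2 in 1 % CTRL and 763 ± 29.6 in 1 % STIM. The libraries of 1 % CTRL and 1 % STIM did not overlap, and those of the other pairs of groups did. The summed level of the 3 JUN genes was 1444 ± 227, 1806 ± 278, 1206 ± 234 and 1278 ± 110 in the same order. The ratio of Fosl2 to Fosl1 normalized counts was 3.15 ± 0.31 in 5 % CTRL, 4.20 ± 0.38 in 5 % STIM, 5.28 ± 0.97 in 1 % CTRL and 6.0 ± 0.47 in 1 % STIM. Without replicate 1 of 1 % CTRL the ratio in that group was 4.89 ± 0.22 (n = 5). These sums and ratios were not tested, since they run over the chosen members.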
